A study of Caenorhabditis elegans with 10 samples.

Results

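The C-type lectin genes of Caenorhabditis elegans (symbols clec followed by a number) were followed across 10 libraries of messenger RNA from whole worms. The deposited table held 251 such genes with 273 transcripts, among 40857 gene symbols in all. Where a gene had several transcripts (15 lectin genes), the one with the highest mean stood for it. Of the 251, 121 (48.2%) reached at least 1 FPKM in at least 2 libraries, against 16085 (39.4%) of all symbols. FPKM, fragments per kilobase of transcript and M reads, is a level per length, so levels of different genes can be set side by side.

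The 5 genotypes were daf-2(e1370);math-33(tm3561), daf-2(e1370), daf-16(mu86);daf-2(e1370), math-33(tm3561) and the wild type N2. All worms grew at 15 °C in populations that were only partly synchronized. Each genotype was either moved to 25 °C for 22 hr from the L3/L4 stage or kept at 15 °C. Worms were collected as L4 larvae or before adulthood, about 3000 per library, and every group had 1 library. The daf-2 gene encodes the worm's insulin/IGF-1 receptor, e1370 is a temperature-sensitive allele of it, DAF-16 is the FOXO transcription factor held in check by the receptor, and the product of math-33 removes ubiquitin from proteins. The series asked how DAF-16 regulates its targets in daf-2 worms that have or lack math-33. daf-16(mu86) removes DAF-16 function in a daf-2(e1370) background, and the math-33 single mutant was set against N2.

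C-type lectin domains are folds that in many animals bind sugars, some with the help of calcium. The nematode family is large, many of its proteins are secreted, and many of its genes are expressed in the intestine, where a number of them respond to bacterial infection. Others lie far from immunity, among them clec-87 and clec-88, whose products were also described as core proteins of chondroitin proteoglycans. Insulin signalling through DAF-16 and the p38 kinase PMK-1 are 2 pathways known to act on immune effector genes of this kind.

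Depth was 25.21 to 35.22 M reads per library. The transcripts of math-33 were at 13.9 to 15.9 FPKM in the 4 math-33(tm3561) libraries and at 59.3 to 79.3 FPKM in the other 6. In the daf-16(mu86) libraries 4 of the 7 longer daf-16 transcripts had 0 reads beyond those of the shortest, among them the one of 1517 bases, against 188 to 356 in the other libraries. The other 3 kept some: 62 to 123 for that of 1542 bases, against 204 to 416, 22 to 23 for that of 1613 bases, against 168 to 385, and 8 to 19 for that of 1453 bases, against at most 295. The 10 intestinal marker genes, which include elt-2 and ges-1, summed to 2742.4 to 3540.9 FPKM and none was at 0 in any library. Sperm, yolk and oocyte, and molt markers differed several-fold between libraries and are given beside the lectin genes they move with. In whole worms, fewer cells of a type and less RNA per cell cannot be told apart. Since every group is a single library, no replicate checks a difference between 2 of them, and none is given a p-value. A fold carries an exact 95% interval of counting error only.

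A single gene made up a large share of lectin RNA. clec-63, on chromosome II from 12895571 to 12897318 (build ce10), was at 1892 and 2169 FPKM in daf-2;math-33, 2768 and 2785 FPKM in daf-2, 2315 and 2624 FPKM in daf-16;daf-2, 983 and 1110.1 in math-33, and 1619 and 2389 in N2 (25 °C first, then 15 °C, here and below). It was lowest in the 2 math-33 libraries and highest in the 2 daf-2 libraries, and it held 23.7 to 47.8% of the summed FPKM of all lectin genes in a library. Second came clec-50, on chromosome V, with a mean of 691 FPKM and a range of 399 to 1007 FPKM. All lectin genes together summed to 5102.1 and 5030.0 FPKM in daf-2;math-33, 6554.1 and 5829.0 FPKM in daf-2, 5613.8 and 5609.4 FPKM in daf-16;daf-2, 4144.7 and 3529.7 in math-33, and 4591.2 and 5034.2 in N2. The math-33 libraries were again the 2 lowest.

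Behind these came clec-1, clec-87, clec-83, clec-85 and clec-41 with means of 229, 201, 133, 118 and 100.1 FPKM. clec-85 is a known target of the PMK-1 immune pathway, and clec-41 has been studied in defence against Bacillus thuringiensis. Both clec-83 and clec-85 were highest in daf-2 at 25 °C, at 254 and 248 FPKM. The levels of clec-65, clec-88 and clec-150 completed the 10 most abundant, with means of 91.4, 91.0 and 88.1 FPKM. Most lectin genes were weak: the median of the 121 was 4.02 FPKM, against 10.94 FPKM over all expressed genes, and 76 of them had means under 10 FPKM. Chromosome V held the most lectin genes, 90, of which 45 were expressed. On chromosome X there were 3, all expressed, with a median of 22.96 FPKM.

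**Figure D1:**
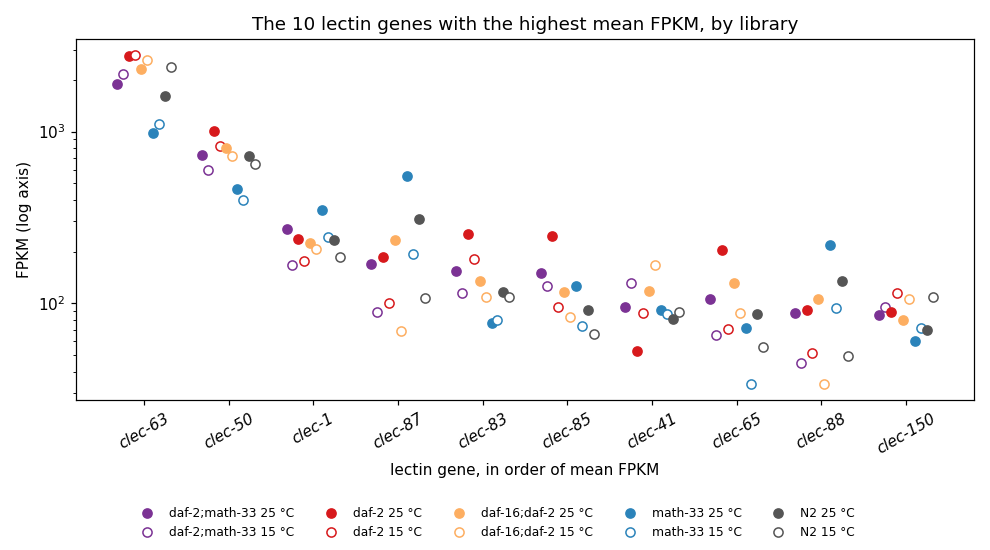
Levels of the 10 lectin genes with the highest mean, as FPKM on a log axis; each point is 1 library, coloured by genotype, filled at 25 °C and open at 15 °C. clec-63 lies above all others in every library, and its lowest points are the math-33 libraries at 983 and 1110.1 FPKM.

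Temperature was the one term of the fit for which lectin genes passed the adjusted threshold. That term is set over 5 genotypes and a genotype contrast over 2 temperatures, so they differ in precision. In a limma fit with genotype and temperature terms over all 10 libraries (Benjamini-Hochberg adjusted p under 0.05 over 16085 genes), 22 of 121 lectin genes rose at 25 °C and 13 fell, against a background of 14.6% of all genes higher and 4.68% lower. At an unadjusted p under 0.05 there were 31 and 21, together 43% of the expressed lectin genes, against 35.5% of all genes. Of the 35 called, 34 moved the same way in all 5 genotypes, and the exception was clec-52, in 4. Differences between genotypes in the response enter the error of the fit, so a call favours such agreement. It is therefore no separate support. With each library centred on its own median the counts were 17 higher and 19 lower, and with quantile normalization 18 and 17, so the balance of the 2 directions depended on the scaling. Of all genes, 3115 were called with centring and 2830 with quantile normalization, against 3099 as deposited. clec-1, clec-52, clec-85, clec-166 and clec-227 were among the 35 and were not called after centring. With any 1 library left out, fewer lectin genes and fewer of all genes were called. Both were fewest without either daf-2;math-33 library, so the drop was not particular to lectin genes. The repeats of this fit are the genotypes, not replicate cultures. Sperm markers were higher at 25 °C in every genotype, with median log2 differences from 0.77 in daf-2 to 2.39 in N2. Temperature and a difference in stage therefore cannot be told apart here.

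The genes with the smallest p were the proteoglycan genes. clec-88, on chromosome II, was at 87.8, 91.6, 105, 218 and 134 FPKM at 25 °C in daf-2;math-33, daf-2, daf-16;daf-2, math-33 and N2, and at 45.1, 51.6, 34.0, 93.4 and 49.01 FPKM at 15 °C in the same order. It rose by 1.20 log2 units (SE 0.13, limma adjusted p = 0.00694, n = 10 libraries). Its partner clec-87, on chromosome I, was at 170, 187, 233, 550.0 and 309 FPKM at 25 °C and at 88.5, 100.1, 69.2, 193 and 107 FPKM at 15 °C, and rose by 1.32 (SE 0.145, limma adjusted p = 0.00694). A gene of similar pattern, clec-91, rose by 1.28 (SE 0.163, limma adjusted p = 0.00779). All of them were highest in math-33 at 25 °C. Summed yolk and oocyte markers (14 of 15 measured, none at 0) were highest in the same library, at 15567.4 FPKM, and ran from 2354.4 to 8316.8 FPKM in the others, and their part in the result was not tested.

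Several other lectin genes that rose sat at levels up to 31.6 FPKM and moved with sperm markers. clec-73 had 30.1, 9.31, 8.87, 31.6 and 26.0 FPKM at 25 °C and 9.74, 2.83, 5.82, 21.7 and 5.48 FPKM at 15 °C, in the same order of genotypes. It was high in daf-2;math-33, math-33 and N2 at 25 °C and in math-33 at 15 °C. Its fitted rise at 25 °C was 1.22 (SE 0.246, limma adjusted p = 0.0197), and clec-79, clec-119, clec-123 and clec-151 rose by 0.94 to 1.33. The 35 sperm markers, major sperm proteins and spermatogenesis genes, summed to 3153.7, 675.2, 979.4, 5643.9 and 3022.0 FPKM at 25 °C and to 1362.2, 383.4, 487.4, 2359.7 and 490.0 FPKM at 15 °C. At most 1 of them was at 0 in any library, and their part in the result was not tested.

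Among those that fell, clec-169, on chromosome IV, ran from 19.3 FPKM in math-33 to 69.9 FPKM in daf-2 at 25 °C (median 30.6 FPKM) and from 75.7 FPKM in math-33 to 155 FPKM in daf-2 at 15 °C (median 127 FPKM). No 25 °C library reached the lowest 15 °C library, and the fitted fall was 1.63 log2 units (log2 difference -1.63, SE 0.195, limma adjusted p = 0.00736). clec-42, studied like clec-41 in defence against B. thuringiensis, had a median of 2.59 FPKM at 25 °C and 13.7 FPKM at 15 °C, a difference of -1.81 (SE 0.226, limma adjusted p = 0.00768). The remaining called genes had fitted differences from -1.41 (clec-10) to 1.83 (clec-266). clec-10 and clec-170 (-1.27) were very low in 1 library, daf-2 at 25 °C, and their fitted falls include it.

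**Figure D2:**
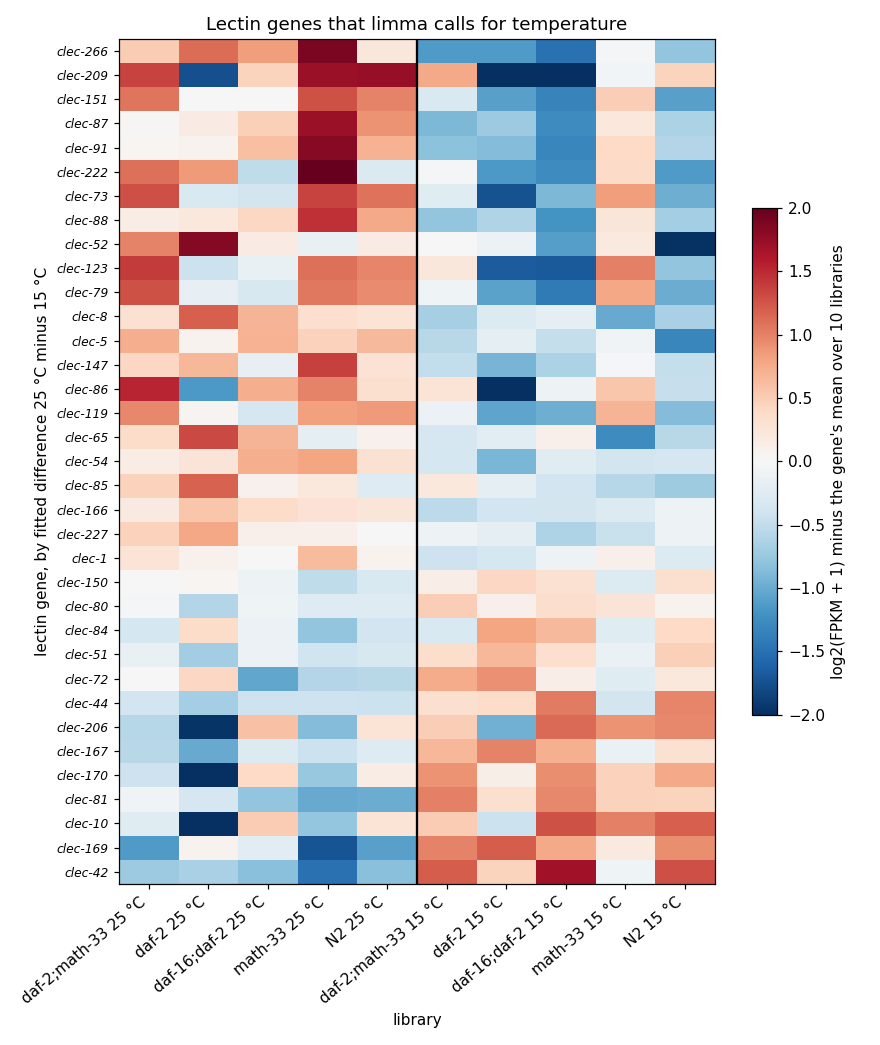
The 35 lectin genes called for temperature (rows, from the largest fitted rise at the top to the largest fall at the bottom) in the 10 libraries, 25 °C left of the line and 15 °C right of it; colour is log2(FPKM + 1) minus the gene's mean and saturates at 2 log2 units. 34 rows move the same way in all 5 genotypes, which the call itself favours. clec-209, clec-86, clec-10, clec-170 and clec-206 are darkest blue in daf-2 libraries, and clec-209 is as dark in daf-16;daf-2 at 15 °C.

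Within single genotypes, counts past 1 log2 unit on the log2(FPKM + 1) scale between 25 and 15 °C were taken library against library. In daf-2;math-33, 16 lectin genes were higher and 9 lower, beside 10.1% and 3.27% of all genes. In daf-2, 24 were higher and 12 lower, beside 11.7% and 3.72%. In daf-16;daf-2, 12 and 9 were past the unit, beside 10.2% and 4.19%. In math-33 they were 13 and 9, beside 6.63% and 6.73%, and in N2 18 and 6, beside 13.3% and 3.82%. The share of higher genes among those past the unit was 64% in daf-2;math-33, 66.7% in daf-2, 57.1% in daf-16;daf-2, 59.1% in math-33 and 75% in N2, and with centred libraries it was 50%, 51.4%, 43.5%, 59.1% and 50%. In the same order of genotypes, the share over all genes was 75.6%, 75.8%, 70.9%, 49.6% and 77.7%. With centred libraries it was 59.6%, 55%, 54.8%, 48.8% and 59.2%. Centring shifted the median of all genes in daf-2, for example, to -0.115, against 0.124 as deposited. The pathogen-response gene clec-52, induced by Staphylococcus aureus in other work, was at 66.6 and 33.1 FPKM in daf-2;math-33, 120 and 30.5 FPKM in daf-2, 37.2 and 15.0 FPKM in daf-16;daf-2, 29.8 and 38.1 in math-33, and 37.1 and 7.67 in N2. math-33 was the only genotype in which its 25 °C library was the lower one.

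The question of DAF-16 itself is addressed by daf-2 versus daf-16;daf-2, which share the receptor mutation. At 25 °C, 16 of 121 lectin genes were higher in daf-2 by at least 1 log2 unit and 18 lower, beside 7.06% and 5.09% of all genes, with a median of 0.00 for lectin genes and for all genes. At 15 °C, 4 were higher and 9 lower, beside 4.15% and 5.43%. The lectin family was thus spread to both sides at 25 °C, with 14.9% of its genes below -1.

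clec-61 had the widest range of any expressed lectin gene on the log2(FPKM + 1) scale. It lies on chromosome II from 10488699 to 10490431 and belongs to the lectin genes reported in responses to bacteria. Its level was 71 FPKM in daf-2 and 0.503 FPKM in daf-16;daf-2 worms at 25 °C, a 141-fold difference (95% counting interval 74.1 to 309). At 15 °C it was at 10.4 FPKM in daf-2 and 3.27 FPKM in daf-16;daf-2, 3.18-fold (2.32 to 4.40). No library outside daf-2 passed 5.43 FPKM. The next in size at 25 °C included clec-101, clec-82 and clec-75. clec-101 had 7.73 FPKM in daf-2 and none in daf-16;daf-2, at least 43.04-fold against a floor of 3 pairs. clec-82 was at 5.85 FPKM in daf-2 and 0.289 in daf-16;daf-2 (20.3-fold, 8.28 to 51.7), and clec-75 at 5.70 and 0.322 FPKM (17.7-fold, 8.72 to 41.6). Its neighbour clec-76 was at 16.3 FPKM in daf-2 and 2.43 in daf-16;daf-2 (6.69-fold, 5.01 to 9.26), and at 15 °C at 10.3 and 3.18 FPKM. clec-17, part of the response to Microbacterium nematophilum, was at 29.3 FPKM in daf-2 and 4.24 in daf-16;daf-2 at 25 °C (6.90-fold, 5.47 to 8.91). clec-146 was at 32.3 and 8.21 FPKM (3.93-fold, 3.01 to 5.18). clec-145 and clec-55 followed with differences of 1.72 and 1.69. clec-55 overlaps the gene R02D5.7. clec-196 also appears among the largest, but its transcript is very short and its value in daf-2 rests on 10 pairs.

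On the low side in daf-2 at 25 °C stood clec-10, on chromosome II from 402682 to 404120. It had no reads in daf-2 at 25 °C and 13.03 FPKM in daf-16;daf-2, at least 84.1-fold lower in daf-2, and at 15 °C 6.26 FPKM in daf-2 and 22.7 FPKM in daf-16;daf-2. clec-4, whose mutants have been studied for altered avoidance of pathogenic bacteria, was at 0.731 FPKM in daf-2 and 15.4 in daf-16;daf-2 (21.1-fold lower in daf-2, 12.84 to 40.5). At 15 °C the same gene was at 3.17 and 4.64 FPKM. clec-170 was at 0.630 FPKM in daf-2 and 11.4 in daf-16;daf-2 at 25 °C (18.1-fold lower, 10.96 to 34.8), and clec-206 at 1.79 and 15.3 FPKM (8.56-fold lower, 6.12 to 12.3). clec-206 was also low in daf-2 at 15 °C, at 4.57 FPKM, against 22.8 FPKM in daf-16;daf-2. clec-86, another gene of the M. nematophilum response, was at 7.55 FPKM in daf-2 and 30.1 in daf-16;daf-2 worms at 25 °C, and at 1.94 and 16.6 FPKM at 15 °C, where it was 8.57-fold lower in daf-2 (5.10 to 15.3). clec-209, clec-210, clec-28, clec-239 and clec-66 made up the rest of the 10 largest decreases at 25 °C, between -2.21 and -1.45. Of these, clec-239 rests on 2 pairs in daf-2. At 15 °C clec-78 was at 0.874 FPKM in daf-2 and 10.1 FPKM in daf-16;daf-2, which was higher than in any other library (at most 3.01 FPKM).

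**Figure D3:**
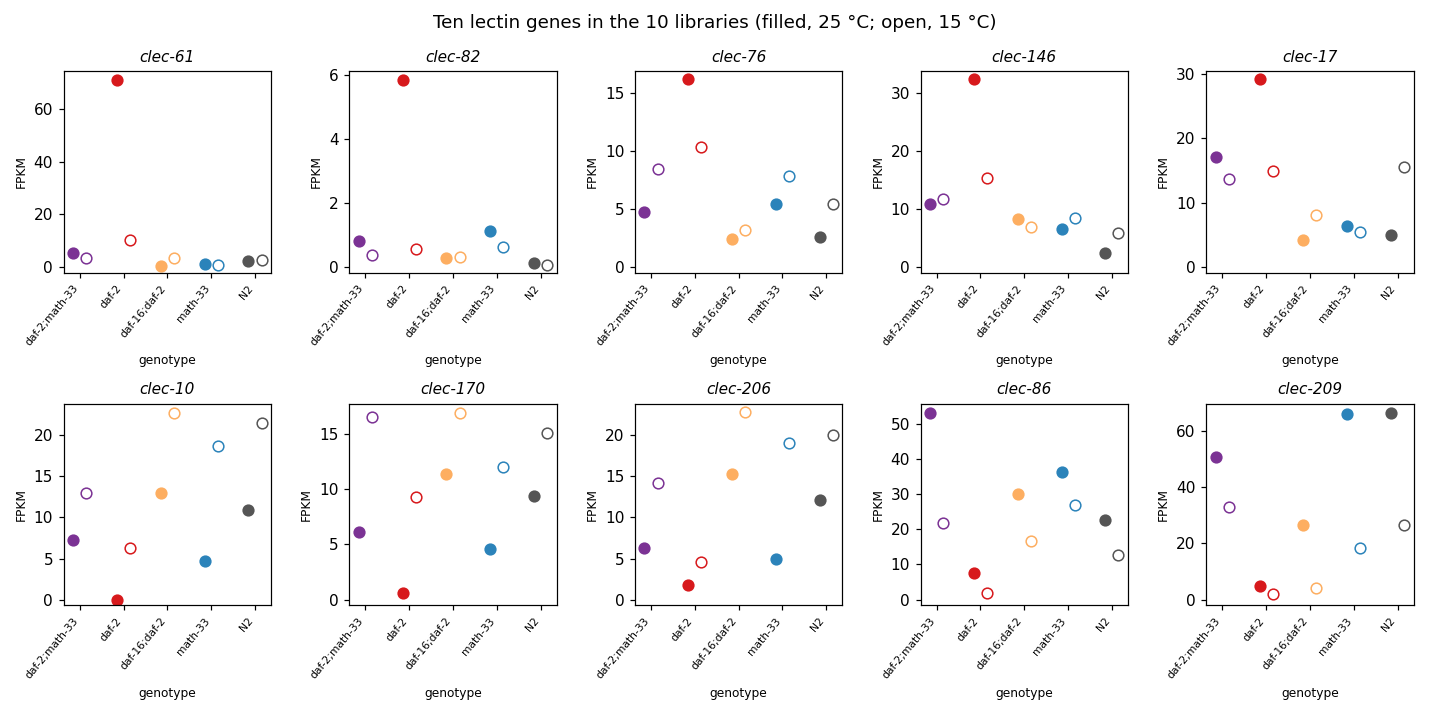
Levels of 10 lectin genes in FPKM (linear axes, one per panel) by genotype, filled at 25 °C and open at 15 °C, 1 library per point. The upper genes are highest in daf-2 at 25 °C (clec-61 at 71 FPKM). Within each temperature the lower ones are lowest in daf-2, with clec-86 at 7.55 and 1.94 FPKM. In daf-2, clec-10 and clec-170 are very low only at 25 °C, at 0 and 0.63 FPKM, against 6.26 and 9.28 FPKM at 15 °C.

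Loss of math-33 in the daf-2 background was the study's central comparison. At 25 °C, 24 of 121 lectin genes (19.8%) were higher in daf-2;math-33 than in daf-2 by at least 1 log2 unit and 10 (8.26%) lower, beside 11% and 5.13% of all genes, and the median was 0.25 against 0.06 for all genes. Among the 65 lectin genes of at least 5 FPKM in 2 libraries, 15 were higher and 5 lower, and the median was -0.04. Under that filter 75% of the lectin genes past the unit were higher, against 72.4% of all genes past it. The median of all genes was 0.05. At 15 °C, 17 (14%) were higher and 2 lower, beside 8.8% and 1.97%. The higher share at 15 °C was 89.5% of those past the unit and 83.3% with centred libraries, but 56.2% after quantile normalization, with 9 higher and 7 lower and a median of -0.055 against 0.21 as deposited. Over all genes the higher share was 81.7% as deposited, 68.2% with centred libraries and 59.1% after quantile normalization. The direction over the whole family at 15 °C thus depended on the scaling, and the share over all genes moved with it too. This comparison uses the same daf-2 libraries as that with daf-16;daf-2, so the values of a gene in the 2 comparisons are not separate evidence.

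At 25 °C, clec-61 was 13.1-fold lower (10.6 to 16.4) in daf-2;math-33, at 5.43 FPKM against 71 FPKM in daf-2, and at 15 °C it was at 3.31 FPKM against 10.4 FPKM. clec-82 was at 0.820 FPKM in daf-2;math-33 and 5.85 in daf-2 at 25 °C (7.14-fold lower, 4.23 to 13.9). clec-76 was 3.43-fold lower (2.70 to 4.33), at 4.74 and 16.3 FPKM, and clec-146 was 2.99-fold lower (2.34 to 3.86), at 10.8 and 32.3 FPKM. In each of these the daf-2;math-33 level at 25 °C lay between those of daf-2 and daf-16;daf-2. clec-17 was at 17.2 FPKM in daf-2;math-33, between 29.3 in daf-2 and 4.24 in daf-16;daf-2. clec-101 was at 2.71 FPKM in daf-2;math-33 and 7.73 in daf-2, and clec-169 at 29.6 and 69.9 FPKM. clec-55, clec-75 and clec-230 were lower by 1.39, 1.18 and 1.12 log2 units (-1.39, -1.18 and -1.12). Levels of clec-101, clec-55 and clec-75 in daf-2;math-33 again lay between those of daf-2 and daf-16;daf-2. clec-169 and clec-230 were instead below daf-16;daf-2, at 29.6 against 57.4 FPKM and at 2.31 against 3.46 FPKM. clec-196 (-1.45) again rests on few pairs.

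The largest increases in daf-2;math-33 over daf-2 follow. Ranking by that difference favours genes that were low in daf-2, so their low level there is no separate result. clec-209 was at 50.8 FPKM in daf-2;math-33 and 4.998 in daf-2 at 25 °C (10.2-fold, 7.91 to 13.2), and at 33.1 and 2.18 FPKM at 15 °C (15.2-fold, 10.7 to 22.2). It lies on chromosome V from 2351675 to 2352931 and had the same values as the gene F56A4.2 listed at that place, so the same reads stand for both. clec-86, on chromosome X, was at 53.2 FPKM in daf-2;math-33 and 7.55 in daf-2 at 25 °C (7.04-fold, 5.37 to 9.53), and at 21.8 and 1.94 FPKM at 15 °C (11.23-fold, 6.77 to 19.7). The 2 daf-2 libraries were below each of the other 8 for clec-86, clec-206 and clec-210, although 4 of those 8 also carry daf-2(e1370). clec-10 was at 7.30 FPKM in daf-2;math-33 worms at 25 °C and without reads in daf-2, at least 47.1-fold higher. clec-170 was at 6.09 FPKM in daf-2;math-33 and 0.630 in daf-2 (9.67-fold, 5.75 to 18.9), and clec-4 at 5.16 and 0.731 FPKM (7.06-fold, 4.12 to 13.8).

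A further set of increases was in genes that follow the sperm markers. clec-123 was at 31.4 FPKM in daf-2;math-33 and 8.11 in daf-2 at 25 °C (3.87-fold, 3.33 to 4.53), and at 13.4 and 2.87 FPKM at 15 °C (4.65-fold, 3.64 to 5.92). clec-73 was 3.44-fold higher at 15 °C (2.67 to 4.45). clec-153, which lies next to clec-151 and overlaps the gene F10F2.2, was at 6.30 and 0.647 FPKM at 25 °C, and clec-175 at 4.88 and 0.716 FPKM. The sperm markers summed to 3153.7 FPKM in daf-2;math-33 and 675.2 FPKM in daf-2 at 25 °C, and to 1362.2 and 383.4 FPKM at 15 °C, and their part in the result was not tested. clec-97 and clec-229 were higher by 1.85 and 1.86 log2 units at 25 °C, and clec-172 by 1.47 at 15 °C. clec-84 was lower at 15 °C, at 59.3 FPKM in daf-2;math-33 and 127 in daf-2 (2.14-fold lower, 1.91 to 2.40).

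**Figure D4:**
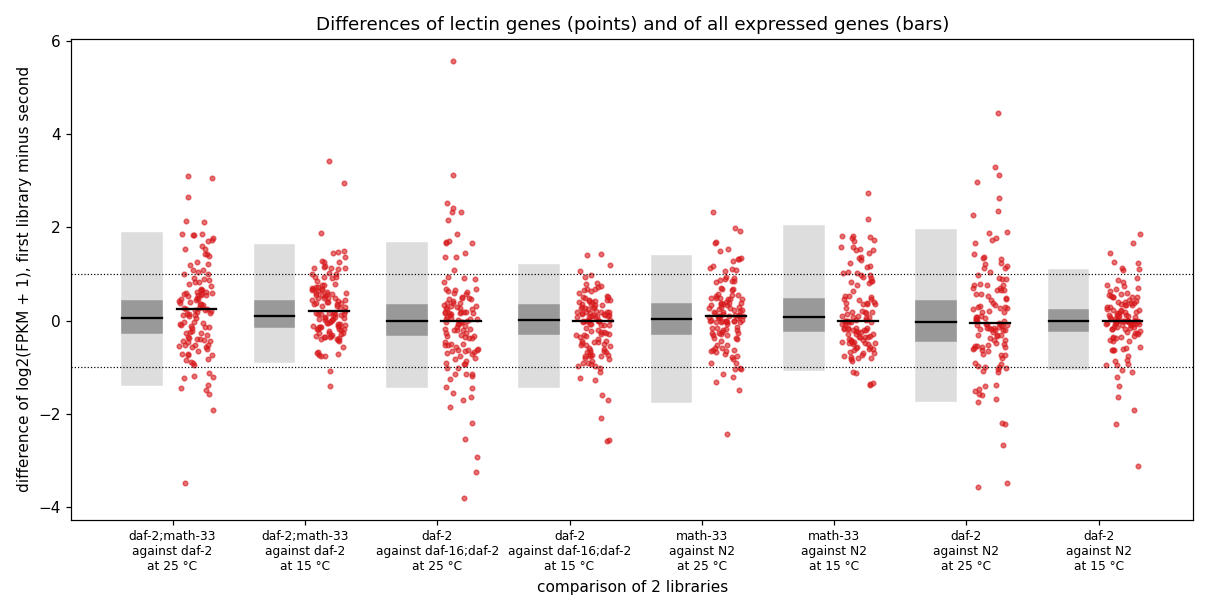
Differences of log2(FPKM + 1), first-named library minus second, in 8 comparisons. Points are the 121 expressed lectin genes; beside them, grey bars show the middle 95% (light) and the middle 50% (dark) of all 16085 expressed genes, black lines are medians, and dotted lines mark 1 log2 unit. The highest point is clec-61 in daf-2 versus daf-16;daf-2 at 25 °C, at 5.58.

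In worms with an intact receptor, math-33 was set against N2. At 25 °C, 16 lectin genes were higher in math-33 and 8 lower, beside 5.25% and 7.16% of all genes. At 15 °C, 23 were higher and 5 lower, beside 11.5% and 2.79%. With centred libraries these were 17 and 10, a higher share of 63% against 82.1%. Over all genes the higher share was 64% with centred libraries, against 80.4%. clec-63 was at 983 FPKM in math-33 and 1619 FPKM in N2 at 25 °C and at 1110.1 and 2389 FPKM at 15 °C, where it was 2.15-fold lower (2.11 to 2.19). clec-50 was at 466 and 718 FPKM at 25 °C and at 399 and 647 FPKM at 15 °C. The 2 most abundant lectin genes were therefore both lower in math-33 at both temperatures.

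Higher in math-33 was clec-222, at 8.87 FPKM against 0.960 FPKM in N2 at 25 °C (9.24-fold, 4.82 to 19.8) and at 2.11 against 0.084 FPKM at 15 °C. The infection reporter gene clec-60, induced by S. aureus and M. nematophilum, reached 4.62 FPKM in math-33, against 0.475 FPKM in N2, at 25 °C (9.72-fold, 4.74 to 23.3), and at 4.08 and 1.24 FPKM at 15 °C. clec-190 was at 5.66 FPKM in math-33 and without reads in N2 at 15 °C, at least 20.8-fold higher. At 25 °C the same gene was at 1.20 and 0.052 FPKM. clec-137 was at 1.90 and 1.85 FPKM in math-33 and had no reads in either N2 library. At 15 °C clec-52 was 4.96-fold higher (4.03 to 6.16) in math-33, and clec-97, clec-126 and clec-266 were higher by 1.98, 1.70 and 1.66 log2 units at 25 °C. clec-219, clec-73 and clec-123 were higher by 1.81, 1.81 and 1.79 at 15 °C. The sperm markers, which clec-73 and clec-123 follow, summed there to 2359.7 FPKM in math-33 and 490.0 FPKM in N2. The part of these markers in the result was not tested. clec-219 had no reads in either N2 library.

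clec-180 was the lowest relative to N2. It was at 6.80 FPKM in math-33 and 41.1 FPKM in N2 at 25 °C (6.05-fold lower, 5.32 to 6.90), while the other libraries ran from 44.4 to 78.3 FPKM. The 14 molt markers, cuticle collagens and molting factors, summed to 281.7 FPKM in math-33 and 1497.1 FPKM in N2 at 25 °C, none at 0, and were also lowest in that library, and their part in the result was not tested. clec-238, clec-4, clec-239 and clec-206 were lower by between 1.14 and 1.49 log2 units at 25 °C (-1.49, -1.32, -1.22 and -1.14). At 15 °C clec-42, clec-17, clec-44 and clec-61 were lower, with differences of -1.38, -1.36, -1.34 and -1.12. clec-44 is a pseudogene in RefSeq.

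The receptor mutant was also set against the wild type. In daf-2 against N2 at 25 °C, 22 lectin genes were higher and 18 lower, beside 9.33% and 9.28% of all genes, and at 15 °C 8 were higher and 8 lower, beside 2.92% and 2.85%. The lectin shares were 18.2% and 14.9% at 25 °C and 6.61% each way at 15 °C. clec-61 was at 71 FPKM in daf-2 and 2.28 in N2 at 25 °C (31.2-fold, 22.6 to 44.3) and at 10.4 and 2.61 FPKM at 15 °C. clec-60 was at 10.6 FPKM in daf-2 and 0.475 in N2 at 25 °C (22.3-fold, 11.1 to 52.2), and clec-146 at 32.3 and 2.36 FPKM (13.7-fold, 8.72 to 24.03). clec-101 was at least 40.2-fold higher in daf-2, and clec-82 was 52.3-fold higher with 2 pairs in N2 (14.1 to 435). The level of clec-48 was 85.2 and 92.6 FPKM in daf-2 worms and 40.8 and 33.4 FPKM in N2 (2.77-fold at 15 °C, 2.51 to 3.07). In the other direction, clec-209 was at 4.998 FPKM in daf-2 and 66.6 in N2 at 25 °C (13.3-fold lower, 10.4 to 17.3) and at 2.18 and 26.6 FPKM at 15 °C (12.2-fold lower, 8.59 to 17.9). clec-10 was at least 70.05-fold lower in daf-2 at 25 °C, and clec-170, clec-206 and clec-4 were lower, with differences of -2.67, -2.23 and -2.21. At 15 °C the largest increases were clec-52, clec-61, clec-48, clec-146 and clec-55, and the largest decreases clec-209, clec-86, clec-206, clec-10 and clec-210.

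No lectin gene passed limma's adjusted threshold in any genotype contrast fitted over both temperatures. For daf-2;math-33 versus daf-2, 28 were higher and 10 lower at an unadjusted p under 0.05 (31.4% of lectin genes, against 15% of all genes), and the smallest adjusted p was 0.0518, for clec-86 (2.81 log2 units, SE 0.269). clec-209 (3.27, SE 0.409) and clec-210 (1.49, SE 0.215) followed, with limma adjusted p of 0.0597 and 0.0845. For daf-2 versus daf-16;daf-2, 13 were higher and 17 lower at the unadjusted p (24.8%, against 12.2% of all genes), and the smallest adjusted p was 0.0904, again for clec-86 (-2.22, SE 0.269). math-33 against N2 gave 23 higher and 12 lower at the unadjusted p (28.9%, against 18.3%), and the smallest adjusted p was 0.0907, for clec-223 (1.47, SE 0.272), with clec-50 and clec-63 at 0.0943. daf-2 against N2 gave 19 and 11 (24.8%, against 13.6%), with a smallest adjusted p of 0.127, for clec-209. The difference between math-33 loss in daf-2 and in N2, a contrast added after seeing the data, gave 10 and 9 (15.7%, against 8.64%), with a smallest adjusted p of 0.353. Over all 16085 genes these contrasts called few: 0% higher and 0.0124% lower for daf-2;math-33 versus daf-2, 0.0311% and 0.00622% for daf-2 versus daf-16;daf-2, 0.348% and 0.0933% for math-33 against N2, and 0% in both directions for the other pair of contrasts. clec-86 crossed the threshold in daf-2;math-33 versus daf-2 with centred libraries, with quantile normalization and with a filter of 5 FPKM. Without daf-2 at 15 °C, 2 lectin genes were called in daf-2;math-33 versus daf-2, 6 in daf-2 versus daf-16;daf-2 and 10 in daf-2 versus N2, where 109, 169 and 296 of all genes were. Without either N2 library, 2 were called in the first of these (140 or 160 of all genes), and without daf-2 at 25 °C 1 (22 of all genes). Without math-33 at 15 °C, 1 was called in math-33 versus N2 (263 of all genes).

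Of 20 lectin genes listed from general knowledge of pathogen responses, 16 were expressed. The list was made with earlier results of these data known. Its counts and medians are therefore description, and are no evidence of a difference from other lectin genes. In daf-2 against N2 at 25 °C, 7 were higher and 2 lower, beside 9.33% and 9.28% of all genes, with a median of 0.62 against -0.04 for all expressed lectin genes (0.25 for those of at least 5 FPKM). In daf-2 versus daf-16;daf-2 at 25 °C they split, 6 higher and 5 lower, beside 7.06% and 5.09% of all genes (median 0.40). In daf-2;math-33 versus daf-2 at 25 °C, 3 were higher and 2 lower, beside 11% and 5.13%, with a median of -0.02. Members differed widely in level: clec-67, a PMK-1 target, was at 21.7 to 72.3 FPKM, clec-49, which binds Serratia, at 13.5 to 25.5 FPKM, and clec-174 at 0.517 to 7.38 FPKM. clec-7 was at 1.04 to 3.02 FPKM, and clec-186 at 53.8 to 88.1 FPKM. clec-66 was at 17.01 FPKM in daf-2;math-33, 15.6 in daf-2 and 44.1 in daf-16;daf-2 at 25 °C. clec-39, clec-43, clec-70 and clec-71 did not pass the filter, and clec-39 had 1 pair in all libraries together.

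Other families of secreted immune proteins, and a list of infection response and dod genes, give a comparison. In daf-2 versus daf-16;daf-2 at 25 °C, 13 of 38 expressed antimicrobial peptide and thaumatin genes were higher and 2 lower (median 0.59), 4 of 18 saposin-like genes were higher and none lower (median 0.56), and 2 of 11 lysozyme genes were higher and 2 lower (median -0.07). The 11 infection response and dod genes had 8 lower and none higher (median -2.24). These genes are not a family. They were listed with earlier results of these data known and include dod genes that DAF-16 is known to oppose. The direction of the list thus follows in part from its choice. The lectin median was 0.00, and of all genes 7.06% were higher and 5.09% lower. In daf-2;math-33 versus daf-2 at 25 °C, 3 peptide genes were higher and 10 lower, no saposin-like gene was higher and 6 lower, 1 lysozyme gene was higher and 2 lower, and 8 infection response and dod genes were higher and none lower, beside 11% and 5.13% of all genes. At 15 °C the saposin-like counts were 3 higher and none lower in this comparison, and 1 higher and 2 lower in daf-2 versus daf-16;daf-2. The infection response and dod counts at 15 °C were 6 higher and none lower for daf-2;math-33 versus daf-2, and none higher and 5 lower for daf-2 versus daf-16;daf-2. The peptide counts there were 3 and 7, and 9 and 3. Of all genes at 15 °C, 8.8% were higher and 1.97% lower in daf-2;math-33 versus daf-2. In daf-2 versus daf-16;daf-2 the shares were 4.15% and 5.43%. These counts share the daf-2 libraries and carry no test.

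Lectin genes lie close together in the genome. With less than 10 kb between neighbours, 170 of the 251 stood in 51 runs, the longest of 13 genes each, on chromosome IV (clec-67 to clec-79, with clec-174) and on chromosome V (clec-40 to clec-33). Over the 42 neighbouring pairs in which both genes were expressed, the median correlation of log2(FPKM + 1) over the 10 libraries was 0.40, against 0.03 over all 7260 pairs of expressed lectin genes, and 7 pairs (16.7%, against 3.36%) had r of at least 0.8. All pairs share the 10 libraries and their stage differences, and the sources used here do not give how reads of similar genes were assigned. clec-62 and clec-63 reached 0.92, clec-75 and clec-76 0.89, and clec-222 and clec-223 0.87. clec-97 and clec-98, also at 0.87, overlap.

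Not all neighbours moved together, and 11 pairs had r below 0. clec-166 and clec-167 had r of -0.90: clec-166 rose at 25 °C by 0.66 (limma adjusted p = 0.0215) and clec-167 fell, with a difference of -1.01 (limma adjusted p = 0.0428). clec-51 and clec-52, at -0.70, likewise differed, with -0.68 and 1.20 (limma adjusted p = 0.0299 and 0.0491). In the run from clec-80 to clec-85, clec-80, clec-81 and clec-84 fell at 25 °C and clec-85 rose, and clec-85 was not called after centring. In the run around clec-61, clec-60 was highest in daf-2;math-33 at 25 °C, at 13.7 FPKM, and clec-61 in daf-2 at 25 °C. clec-84 overlaps Y54G2A.15, with r of -0.884 between them.

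**Figure D5:**
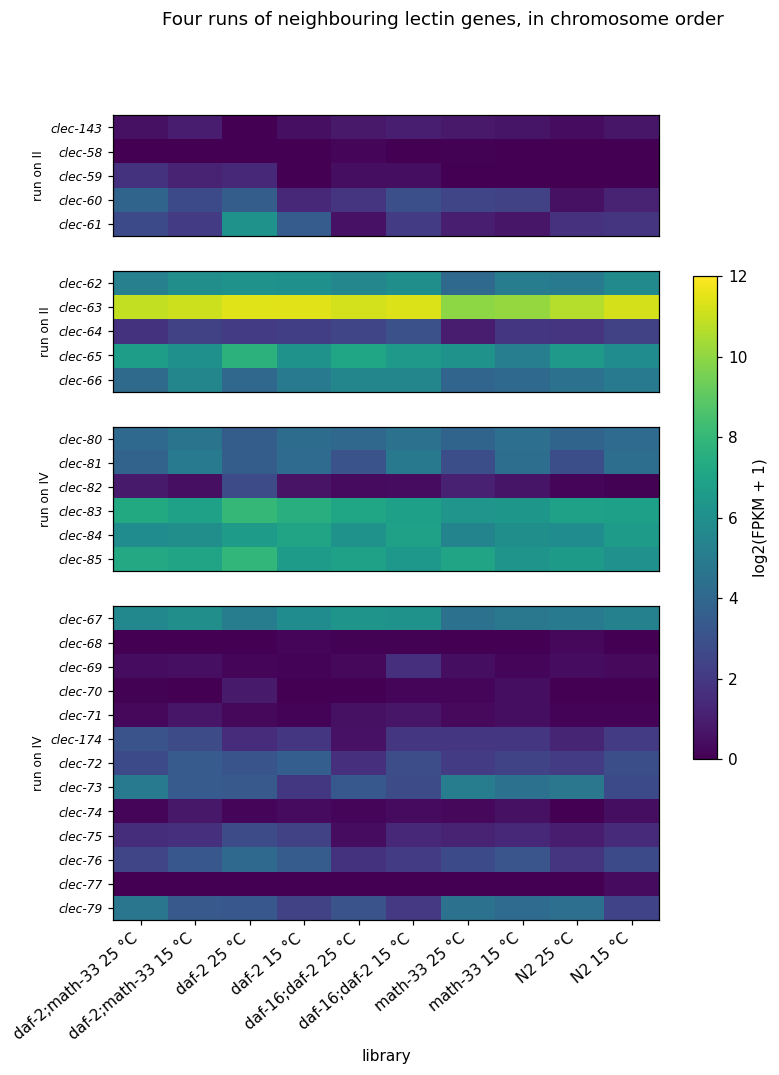
Levels, as log2(FPKM + 1), of 4 runs of neighbouring lectin genes in the 10 libraries, each run in chromosome order. Bright genes such as clec-63 stand beside dark ones such as clec-64, and clec-61 is brightest in daf-2 at 25 °C, where it was at 71 FPKM.

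Across all expressed genes, those whose pattern over the 10 libraries was most like that of clec-61 were cyp-35B1, a cytochrome P450 gene (r = 0.967), F15B9.6, T02B5.1, F47B8.2 and ctl-1, a catalase gene (r = 0.950). cyp-35B1 was at 7.61 FPKM in daf-2;math-33, 43.4 in daf-2 and 2.36 in daf-16;daf-2 at 25 °C. clec-87 was most like clec-88 (r = 0.996), and chs-1, the eggshell chitin synthase, was at 0.991. clec-151 was like spe-26, a spermatogenesis gene (0.993), and clec-79 like cpb-2 (0.993), whose product is a germline RNA-binding protein. clec-10 was like M153.2 (0.975), vap-1 (0.972) and clec-170 (0.966). The 10 libraries share their depth, stage and temperature differences, so these values describe the libraries and carry no test.

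The remaining 130 lectin genes stayed under the filter: 21 had no reads in any library and 109 were detected below it. A floor of 3 pairs corresponds to 0.17 to 0.238 FPKM for a transcript of 1000 bases, and values below it at that length rest on fewer than 3 pairs. Among these, clec-19 had 4.35 FPKM in daf-2 at 25 °C, 0.234 and 0.172 FPKM in daf-2;math-33, and no reads in the other 7 libraries. clec-69 had 2.17 FPKM in daf-16;daf-2 worms at 15 °C and at most 0.392 FPKM elsewhere. Both are named here after their values were seen.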

How the data were processed

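Paired-end reads of stranded poly(A) libraries were quantified by the authors, who deposited 1 table of FPKM (fragments per kilobase and M reads) for 10 libraries. The submitters' processing notes name STAR, HOMER, edgeR and the build ce10, without roles or versions. Transcripts with no gene name (1104, 1.723 to 1.974% of a library's FPKM) were left out. FPKM times length came out in whole multiples of 1 read in 100.0% of low values (tolerance 0.01%), which gave depth; odd and even numbers were mixed, so intervals used read pairs (12.61 to 17.61 M per library) and cover counting error only. Differences are on the log2(FPKM + 1) scale, which understates weak genes. No count model was fitted.

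The model was limma 3.58.1 (R 4.3.3) with trend, genotype and temperature as additive terms and 4 residual degrees of freedom; genotype-specific temperature responses enter its error. The fit was tested on simulated data.

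Members, gene lists, tests and alternatives were chosen with earlier results of these data known. Named genes were the 10 most abundant, the 5 largest differences each way per comparison (10 at 25 °C in the 2 daf-2 comparisons), limma's calls and the pathogen-response list; clec-19, clec-69, clec-137 and clec-223 were named after their values were seen. RefSeq (WBcel235) served for names only: 250 lectin genes matched by locus tag. Promoter motifs and protein identity were planned and were not analysed here. Alternatives were another pseudocount, other filters, centring, quantile normalization, the mean over transcripts, no trend and leaving out each library.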

Additional observations from a re-analysis of the deposited data

Results flagged for a closer look

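Several lectin genes differed by more than 1 log2 unit in opposite directions in 2 settings of the same contrast; with 1 library per group the opposition itself was not tested within a temperature, and the values are log2(FPKM + 1) differences between 2 libraries. At 25 °C, math-33 loss in daf-2 worms and math-33 loss in the wild type went opposite ways for clec-10 (3.05 in daf-2;math-33 versus daf-2, -1.05 in math-33 against N2), clec-4 (1.83 and -1.32), clec-206 (1.38 and -1.14) and clec-146 (-1.50 and 1.17). The limma contrast of math-33 loss in the 2 backgrounds, fitted over both temperatures, called no lectin gene (smallest adjusted p 0.353; 10 higher and 9 lower at an unadjusted p under 0.05). In daf-2;math-33 versus daf-2, clec-101 (-1.23 at 25 °C, 1.26 at 15 °C) and clec-196 (-1.45 and 1.17, on 10 pairs or fewer) went opposite ways at the 2 temperatures. In daf-2 versus daf-16;daf-2, clec-60 was at 1.67 at 25 °C and -1.60 at 15 °C.

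For 25 °C against 15 °C, clec-60 differed by 1.19 in daf-2;math-33 and 2.21 in daf-2, and by -1.06 in daf-16;daf-2. clec-61 differed by 2.66 in daf-2 and -1.51 in daf-16;daf-2. clec-4 differed by -1.27 in daf-2, 1.54 in daf-16;daf-2 and 1.45 in N2. clec-146 differed by 1.03 in daf-2 and -1.03 in N2.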

How the results depend on the processing

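The lectin genes named for the largest differences kept their sign under another pseudocount, other filters, centring, quantile normalization and the mean over transcripts. These differences were chosen for being past 1 log2 unit, which made a change of sign unlikely, so the check says little about stability. With the filter of 5 FPKM only the genes that passed it were checked. Genes named for other reasons were not checked unless they were also among the largest differences. Medians over the family did change sign where they were small. The mean over transcripts moved none of the 19 counts by over 1.5 times. Counts of lectin genes past 1 log2 unit moved with a pseudocount of 0.1 FPKM: in daf-2;math-33 versus daf-2 to 53 at 25 °C and 44 at 15 °C, in daf-2 versus daf-16;daf-2 to 56 and 38, in math-33 against N2 to 39 and 47, in daf-2 against N2 at 15 °C to 36, and between temperatures to 41 in daf-2;math-33, 55 in daf-2, 43 in daf-16;daf-2, 39 in math-33 and 50 in N2. With a filter of 5 FPKM they were 20 and 11 in daf-2;math-33 versus daf-2, 20 in daf-2 versus daf-16;daf-2 at 25 °C, 11 and 16 in math-33 against N2, 26 in daf-2 against N2 at 25 °C, and 16 in daf-2;math-33 and 21 in daf-2 between temperatures. Centring gave 12 in daf-2;math-33 versus daf-2 at 15 °C. The cause was not tested, except that fewer lectin genes, 65 against 121, were counted under the stricter filter. The share of all genes past the unit under these alternatives is not given here, so the counts do not set lectin genes apart from other genes.

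limma's temperature calls numbered 23 with no expression filter and 13 to 30 with 1 library left out; they were lowest without either daf-2;math-33 library (13), and 17 without either daf-16;daf-2 library and 20 without either N2 library. In daf-2;math-33 versus daf-2, 1 lectin gene was called with a filter of 5 FPKM, with centring and with quantile normalization (clec-86 each time), and 0 to 2 with 1 library left out. In daf-2 versus daf-16;daf-2, 1 was called with centring, and 0 to 6 with 1 library left out, the 6 without daf-2 at 15 °C. In math-33 against N2, 1 was called with no filter and 1 without the trend, and 0 to 1 with 1 library left out. In daf-2 against N2, 0 to 10 were called, the 10 without daf-2 at 15 °C. A genotype left with 1 library adds nothing to the fitted spread, and that library is assumed to vary like the others.

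No paired analysis was possible because the labels give no replicate numbers for a replicate block; the genotype term of limma already sets the 2 temperatures of a genotype against each other. Depth limits values under the floor of 3 pairs, and the table does not show whether reads of similar lectin genes were shared.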
